A study of Mus musculus with 3 samples.

Results

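Pericyte nuclei were followed through single-nucleus RNA sequencing of mouse interscapular brown adipose tissue (BAT), the heat-producing fat depot between the shoulder blades. They were chosen by their transcripts. Barcodes entered with 200 or more detected genes and with no more than 50% of their unique molecular identifiers (UMIs, each standing for a captured transcript) from mitochondrial genes. A kept barcode was counted as a pericyte nucleus if Pdgfrb, Notch3, Abcc9, Kcnq5, Rgs6 and Kcnj8 together had at least 3 UMIs, if that sum was at least 3 times the sum of 6 endothelial genes and at least 3 times the sum of 5 adipocyte genes, and if 4 smooth muscle genes together had at most 1 UMI. Of 11792 kept nuclei, 520 met the rule in the untreated library. Of 14027 kept nuclei, 1329 met it in the sham library, and of 10462 kept nuclei, 451 met it in the denervated library.

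The 3 libraries came from adult wild-type C57Bl6 mice. Per the study's methods the mice were 8-week-old C57BL/6J animals, and 20 animals are given for the untreated library and 20 for the denervated library. The number for the sham library was not given in the sources used here. All animals were male per the study's reporting summary. The labels name no operation for the untreated group. In the denervated group the intercostal nerves to the BAT had been cut on the operated side and the tissue was taken on day 3, and the sham group had an operation. Tamoxifen is also listed for the denervated animals that were sequenced and is not named for the untreated library, so its part and that of denervation cannot be told apart. The header of the denervated count table names its run nKO and that of the untreated table nC. The sources used here do not explain the name nKO, and all 3 libraries are labelled wild-type, so the groups follow the labels alone. The study calls the intact side of denervated animals a contralateral sham operation and also uses a separate sham-operated group elsewhere, and which of these the sham library is was not stated. Nuclei came from the floating, adipocyte-rich layer of enzyme-digested tissue, were sorted by dye with a gate against doublets, and were sequenced on the BD Rhapsody whole transcriptome platform. Each condition was 1 library, so no test between conditions was possible. The intervals given throughout are exact 95% intervals for counting error and hold nothing of the spread between animals or preparations.

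Pericytes are mural cells that sit in the basement membrane of capillaries and wrap the endothelium. Endothelial cells recruit them through the platelet-derived growth factor receptor beta, and Notch signals from the endothelium keep them in place. They set capillary tone through contractile proteins, ion channels and receptors for vasoactive hormones, and they add collagens and laminins to the shared basement membrane. In adipose tissue the capillary bed delivers oxygen and fuel to adipocytes, and sympathetic fibres run along the vessels.

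The genes that chose the nuclei are given as a description only. Pdgfrb, the receptor for platelet-derived growth factor B, had 1058, 1201 and 1426 counts per 1000000 UMIs (CPM) in the pericyte nuclei of the untreated, sham and denervated libraries. The sum of the 6 pericyte genes had a median of 10, 8 and 5 UMIs per member in these libraries and reached 40, 31 and 20 UMIs. At the edge of the rule, 31 untreated, 109 sham and 98 denervated members had exactly 3 such UMIs, and 14, 59 and 72 nuclei that met the other conditions had 2 and were left out. More denervated than untreated members thus lay at the edge of the rule. Among members with exactly 3 UMIs, Rgs5, a regulator of G protein signalling that marks pericytes and took no part in the choice, had 4613, 5855 and 2362 CPM. Among nuclei with 2 UMIs it had 1810, 4896 and 1475 CPM, and among members with at least 10 UMIs it had 6303, 6338 and 3804 CPM. At the limit on smooth muscle transcripts, 23, 125 and 17 members had 1 smooth muscle UMI, and 50, 171 and 19 nuclei were left out for having 2 or more. Detection of the 6 genes in a single nucleus was sparse. Members with UMIs of all 6 genes numbered 55, 95 and 3, and members with UMIs of only 1 of them numbered 7, 30 and 23.

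The share of pericyte nuclei was 4.41% of kept nuclei in the untreated library (4.05 to 4.80), 9.47% in the sham library (8.99 to 9.97) and 4.31% in the denervated library (3.93 to 4.72). Depth enters this share because the rule needs 3 UMIs. With every kept nucleus thinned to 300 UMIs and the rule applied again, the shares were 3.5% (3.17 to 3.85), 6.93% (6.51 to 7.37) and 3.18% (2.84 to 3.56). The sham share lay above the other 2 on both counts, and the untreated and denervated intervals overlapped. Among barcodes with at least 500 detected genes, the denervated share was 0.998% beside 3.96% in the untreated and 10.8% in the sham library. Digestion, floating and the sort can set such shares, and their part was not tested. Pericyte nuclei had a median of 780 UMIs in the untreated, 780 in the sham and 398 in the denervated library, and all kept nuclei had medians of 996, 810 and 703 UMIs. Endothelial nuclei had medians of 721, 586.5 and 423 UMIs and smooth muscle nuclei of 1007, 705.5 and 674 UMIs. Adipocyte nuclei had medians of 1845, 1429 and 980.5 UMIs and fibroblast nuclei of 991, 635 and 591 UMIs. The denervated median was thus the lowest in each of these classes too. The members held 449095, 1080509 and 201974 UMIs in all. Mitochondrial transcripts made up 3.31%, 5.16% and 1.82% of their UMIs, and 5.38%, 9.46% and 2.56% of the UMIs of all other nuclei. Between 251 and 278 barcodes occurred in both libraries of a pair, and at most 1 of them was a pericyte nucleus in both.

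**Figure D1:**
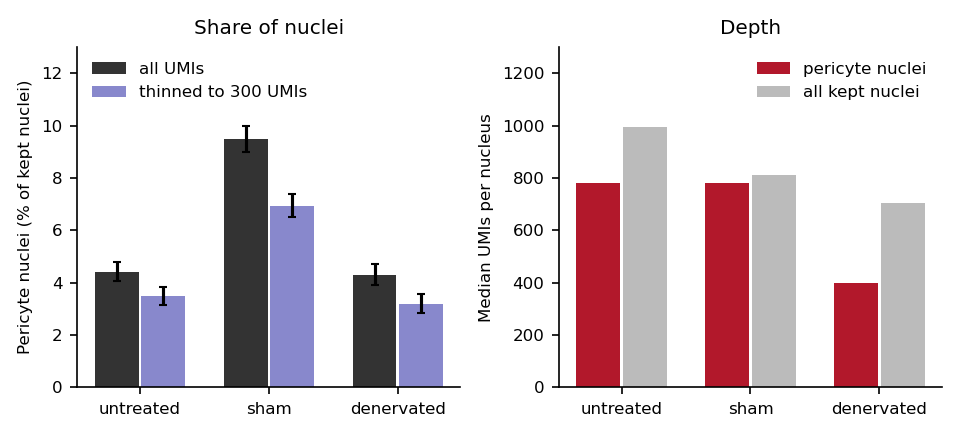
Share of pericyte nuclei among kept nuclei in percent, with all UMIs and after thinning to 300 UMIs, with 95% counting intervals (left), and the median number of UMIs per pericyte nucleus and per kept nucleus (right), for the untreated, sham and denervated libraries. The sham share is the highest on both counts, and the median depth of denervated pericyte nuclei, 398 UMIs, lies below the 780 of both other libraries.

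Markers that took no part in the choice were checked as lists. All 20 further pericyte markers were detected in the pericyte nuclei of each library. Their summed level was 16867 CPM in untreated, 17952 CPM in sham and 12809 CPM in denervated pericyte nuclei, beside 2774, 3448 and 3398 CPM in all other nuclei. The smooth muscle nuclei set apart by the same kind of rule numbered 43, 152 and 21 and had 14247, 10669 and 10894 CPM of this list, so the pericyte list did not by itself separate the 2 mural cell types. The 10 smooth muscle markers did. They summed to 1318, 1229 and 1386 CPM in pericyte nuclei and to 5781, 5441 and 5412 CPM in smooth muscle nuclei, and Cnn1 (calponin) was at 0 in the pericyte nuclei of all 3 libraries. The 10 endothelial markers summed to 472, 613 and 584 CPM in pericyte nuclei and to 5910, 6258 and 5464 CPM in endothelial nuclei. Egfl7 and Vwf were at 0 in untreated and denervated pericyte nuclei. The 8 fibroblast markers summed to 566, 643 and 470 CPM, with Lum and Dpp4 at 0 in the untreated and denervated libraries. The 7 Schwann cell markers summed to 122, 100 and 153 CPM, and the 8 immune markers to 26.7, 23.1 and 34.7 CPM, from 12, 25 and 7 UMIs. All 14 adipocyte markers were detected. They summed to 5812, 3733 and 6456 CPM in pericyte nuclei, against 37405, 17810 and 34945 CPM in adipocyte nuclei, and were lowest in the sham library in both classes. The sum includes Ebf2, which was called higher in pericyte than in other nuclei of the untreated and sham libraries. Without Ebf2, a choice made after seeing the data, it was 4053, 2139 and 4709 CPM in pericyte nuclei, still the highest sum of the marker lists of other classes and still lowest in sham.

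**Figure D2:**
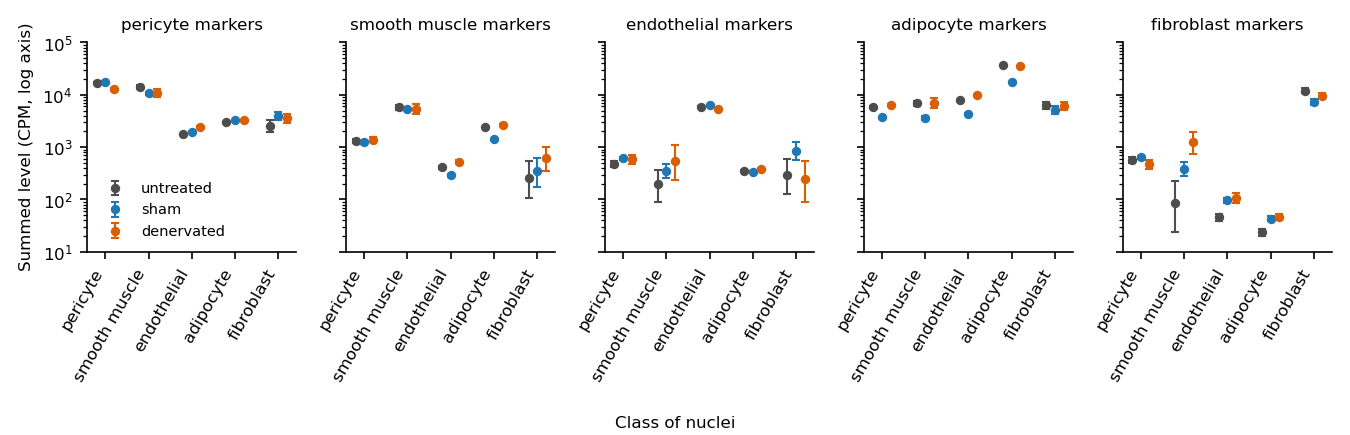
Summed level of 5 marker lists, in CPM on a log axis, in pericyte, smooth muscle, endothelial, adipocyte and fibroblast nuclei of the 3 libraries. Pericyte markers are high in pericyte and smooth muscle nuclei alike, and smooth muscle markers reach 5412 to 5781 CPM in smooth muscle nuclei and 1229 to 1386 CPM in pericyte nuclei.

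Against all other nuclei of the same library, pericyte nuclei were compared gene by gene. A gene was called where its log2 ratio was at least 1 in size, its counting interval left out 0 and both groups together had at least 30 UMIs. In the untreated library 12.3% of 13561 genes were called higher and 14.7% lower in pericyte nuclei. In the sham library 12.8% of 13602 genes were called higher and 16.5% lower, and in the denervated library 10.7% of 13037 genes were called higher and 11.1% lower. The median log2 ratio of all genes was 0.12, -0.02 and 0.28, so ratios in the denervated library sat about 0.28 above 0 before any single gene was read. Of the 20 pericyte markers outside the rule, 19 of 19 that could be compared were called higher in the untreated library, 19 of 20 in the sham library and 16 of 17 in the denervated library, with medians of 5.22, 3.55 and 3.87. Ratios were lower in the sham library for most genes named here. In all other nuclei the summed level of these markers was above that of the untreated library in both the sham and the denervated library, while Pdgfrb, a gene of the rule, had 13.9, 66.7 and 24 CPM there.

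Gipr, Galr1 and Adcyap1r1, which encode receptors for peptides, were among the 25 genes outside the rule with the highest ratios to all other nuclei. Gipr, the receptor for the gut hormone GIP, lies on chromosome 7 from 19156061 to 19166127 on the minus strand (GRCm38). It had 592 CPM in untreated pericyte nuclei (523 to 668), 523 CPM in sham (481 to 568) and 525 CPM in denervated pericyte nuclei (430 to 635). All other nuclei had 5.72, 26.7 and 15.2 CPM of Gipr, and smooth muscle nuclei 21.7, 0 and 0 CPM, so that the log2 ratio to other nuclei was 6.69, 4.29 and 5.11. The intervals of the 3 libraries overlapped for Gipr in pericyte nuclei. Galr1, a receptor for the neuropeptide galanin, had 200 CPM in untreated, 130 CPM in sham and 223 CPM in denervated pericyte nuclei, and its log2 ratio to other nuclei was 6.28, 4.35 and 5.05. Adcyap1r1, the receptor for the neuropeptide PACAP, had 550 CPM in untreated (484 to 623), 226 CPM in sham (198 to 256) and 287 CPM in denervated pericyte nuclei (218 to 371). The untreated level of Adcyap1r1 stood above the other 2, and the ratio of sham to untreated was -1.28 on the log2 scale (-1.55 to -1.02).

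Receptors and effectors of vessel tone formed the next group. Agtr1a, the type 1 receptor for angiotensin II, had 1015 CPM in untreated (924 to 1113), 645 CPM in sham (598 to 695) and 762 CPM in denervated pericyte nuclei (647 to 893). Smooth muscle nuclei had 173, 230 and 278 CPM of Agtr1a, so it was higher in pericyte nuclei than in the related mural class in every library. Ednra, the endothelin A receptor, had 534, 704 and 748 CPM in pericyte nuclei and 585, 833 and 694 CPM in smooth muscle nuclei, where the intervals of the ratio took in 0 in every library. Of 37 vasoactive receptors, 20 could be compared with other nuclei in the untreated library and 5 were called higher (Ednra, Agtr1a, Avpr1a, S1pr2 and S1pr3) and 10 lower. In the sham library 11 of 26 were called higher and 10 lower, and in the denervated library 5 of 18 were called higher and 6 lower. Over all genes 12.3%, 12.8% and 10.7% were called higher in the untreated, sham and denervated libraries, and 14.7%, 16.5% and 11.1% lower. Adrb3, the beta-adrenergic receptor of brown adipocytes, was on the low side with 40.1, 55.5 and 54.5 CPM in pericyte nuclei and 601, 1945 and 633 CPM in adipocyte nuclei.

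The nitric oxide pathway, which relaxes vessels through cyclic GMP, was well covered. Of 12 genes, 8 were called higher than in other nuclei in the untreated library, 8 in the sham library and 7 in the denervated library (12.3%, 12.8% and 10.7% over all genes), with 3, 2 and 2 called lower and medians of 3.2, 2.93 and 3.15. Gucy1a1, a subunit of the nitric oxide receptor guanylate cyclase, had 492, 606 and 371 CPM in pericyte nuclei and 650, 851 and 694 CPM in smooth muscle nuclei. Prkg1, the kinase that cyclic GMP activates, had 4792 CPM in untreated (4592 to 4999), 3387 CPM in sham (3278 to 3499) and 4897 CPM in denervated pericyte nuclei (4596 to 5212), with a log2 ratio to other nuclei of 5.71, 3.67 and 4.66. Prkg1 was also higher in pericyte than in smooth muscle nuclei, at 2230, 2339 and 2290 CPM in the latter. Mrvi1, the substrate through which that kinase limits calcium release, had 363, 635 and 302 CPM in pericyte nuclei.

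Genes of contraction were partly shared with other nuclei. Of 22 contractile and cytoskeletal genes, 9 of 21 were called higher than in other nuclei in the untreated library, 8 of 22 in the sham library and 12 of 21 in the denervated library (12.3%, 12.8% and 10.7% over all genes). Myh10 was called lower in each. Mylk, myosin light chain kinase, had 922, 888 and 871 CPM in pericyte nuclei and 3399, 2933 and 3192 CPM in smooth muscle nuclei. Of 30 potassium and calcium channel genes, 11 of 29 were called higher than in other nuclei in the untreated library, 13 of 30 in the sham library and 10 of 27 in the denervated library, beside 12.3%, 12.8% and 10.7% over all genes. Called lower were 3 (Kcnk3, Itpr2 and Trpm3), 2 (Itpr2 and Trpm3) and 2 (Kcnk3 and Itpr2).

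Matrix genes were a further group. Of 31 basement membrane and matrix genes, 15 were called higher than in other nuclei in the untreated library, 14 in the sham library and 15 in the denervated library (12.3%, 12.8% and 10.7% over all genes), with 3, 4 and 2 called lower. Col4a1, a chain of type IV collagen, had 1427 CPM in untreated (1319 to 1542), 1855 CPM in sham (1774 to 1938) and 1178 CPM in denervated pericyte nuclei (1033 to 1338), and endothelial nuclei had 1210, 1151 and 1398 CPM. Lamc3, a laminin chain, had 347, 288 and 267 CPM in pericyte nuclei and 65, 17.7 and 0 CPM in smooth muscle nuclei. Mgp, matrix Gla protein, which holds back calcification of vessel walls, had 1817 CPM in untreated (1694 to 1946), 1789 CPM in sham (1710 to 1871) and 1357 CPM in denervated pericyte nuclei (1201 to 1527). Smooth muscle nuclei had 108, 88.6 and 139 CPM of Mgp and the 26, 47 and 33 fibroblast nuclei had 750, 221 and 2851 CPM. The fibroblast level of Mgp was thus above the pericyte level in the denervated library and below it in the untreated and sham libraries. Tnxb, the matrix protein tenascin-X, had 1325, 1186 and 2045 CPM in pericyte nuclei. The fibrillar collagen genes Col1a1, Col1a2, Col3a1, Col5a1 and Col5a2 were each called higher in pericyte than in other nuclei in all 3 libraries. Col1a2 had 272, 269 and 198 CPM in pericyte nuclei, a log2 ratio to other nuclei of 3.72, 3.2 and 1.93, and 4126, 1103 and 5413 CPM in fibroblast nuclei.

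Transcription factors and signals to neighbouring cells completed the profile. Tbx5, a T-box factor, had 1436, 922 and 1010 CPM, with a log2 ratio to other nuclei of 6.11, 4.11 and 5.69. Meg3, a maternally expressed non-coding RNA of the imprinted Dlk1-Dio3 region on chromosome 12 (109541001 to 109571726), had 2933, 3141 and 3322 CPM and a ratio of 5.95, 3.92 and 4.93. Mirg, a microRNA host transcript downstream of Meg3 (109729764 to 109749460), had 160, 187 and 173 CPM and a ratio of 6.0, 4.14 and 4.77. Meg3 and Mirg were thus high against other nuclei in each library, and neither was called between any pair of libraries. Ebf2, a factor of the brown adipocyte lineage, was the sole gene of the 14 adipocyte markers called higher in pericyte than in other nuclei in the untreated and sham libraries, with 1759, 1595 and 1748 CPM. The other 13 were called lower in each library. Of 24 neurovascular and innervation genes, 6 of 21 were called higher and 6 lower than in other nuclei in the untreated library, 7 of 22 higher and 6 lower in the sham library, and 6 of 21 higher and 1 lower in the denervated library. Ntf3, Sema5a, Sema6d, Ntn4 and Slit3 were among those called higher in all 3 libraries, and Sema3g was called lower in each. Efnb2, Ephb4 and Epha4 were called lower in the untreated and sham libraries. Over all genes 12.3%, 12.8% and 10.7% were called higher in the untreated, sham and denervated libraries, and 14.7%, 16.5% and 11.1% lower. The median log2 ratio of the neurovascular list was 0.08, -0.07 and -0.05, beside 0.12, -0.02 and 0.28 over all genes. Il34, a ligand of the macrophage growth factor receptor Csf1r, had 661, 682 and 777 CPM and a ratio of 5.59, 3.73 and 4.64. Vegfa had 66.8, 63.9 and 94.1 CPM and was lower than in other nuclei.

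The 5 genes named as furthest below the other nuclei were Pnpla3, Ntrk3, Ppp1r3b, Mlxipl and Acss2. Pnpla3, a lipid droplet enzyme, had 169, 53.7 and 188 CPM in pericyte nuclei and 3491, 2214 and 3187 CPM in adipocyte nuclei, with a log2 ratio to all other nuclei of -3.83, -4.48 and -3.73. Mlxipl, the glucose-sensing factor ChREBP, had 189, 57.4 and 193 CPM and a ratio of -3.72, -4.09 and -3.41. Ntrk3, a neurotrophin receptor, had 134, 28.7 and 149 CPM in pericyte nuclei and 2288, 1345 and 2558 CPM in adipocyte nuclei, with a ratio of -3.57, -4.66 and -3.74. These 3 genes were lowest in the sham pericyte nuclei, as were Ppp1r3b, a glycogen-targeting phosphatase subunit, at 303, 48.1 and 149 CPM and Acss2, an acetyl-CoA synthetase, at 203, 46.3 and 277 CPM.

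**Figure D3:**
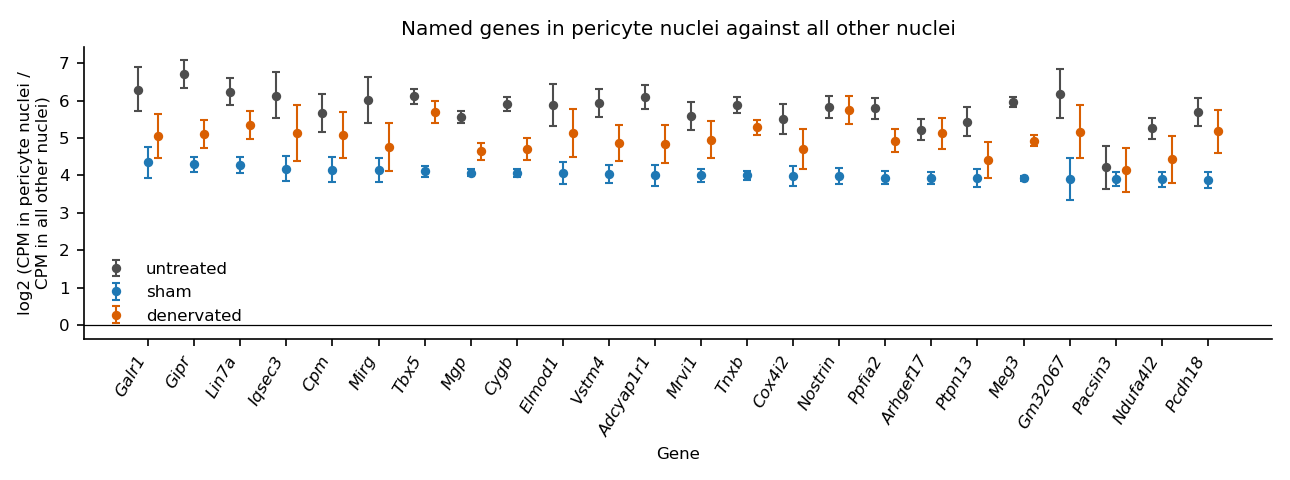
Log2 ratio of CPM in pericyte nuclei to all other nuclei of the same library for genes among the 25 outside the rule with the highest lowest-of-3 ratio, in the untreated, sham and denervated libraries. For Gipr the ratio was 6.69, 4.29 and 5.11, and the sham points lie lowest for most genes.

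Denervated pericyte nuclei were compared with untreated and with sham pericyte nuclei, which asks what 3 days without nerve input go with. Both comparisons share the denervated library. Against the untreated library, 178 of 4746 genes were called higher (3.75%) and 227 lower (4.78%). Against the sham library, 368 of 7395 genes were called higher (4.98%) and 532 lower (7.19%). The median log2 ratio of all genes was -0.04 and -0.08. Of 4436 genes outside the rule with a mean of at least 50 CPM over the members of the libraries, 87 were called higher and 118 lower in the denervated library against both others. Depth moved with this comparison, with a median of 398 UMIs in denervated members and 780 in the others, and its part was not tested.

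Some pericyte markers outside the rule had lower levels in the denervated library. Against untreated, 4 of 19 were called lower (Rgs5, Ndufa4l2, Steap4 and Tbx18) and 0 higher, with a median of -0.34. Against sham, 6 of 20 were called lower (Rgs5, Anpep, Vtn, Ndufa4l2, Steap4 and P2ry14) and 0 higher, with a median of -0.48. Over all genes 4.78% were called lower and 3.75% higher against untreated, and 7.19% lower and 4.98% higher against sham. P2ry14, with 34 sham and 1 denervated UMIs, reached the minimum of 30 UMIs through sham alone. Vtn reached it through sham too, where it was higher. Nothing is read from the calls of P2ry14 and Vtn. Rgs5, on chromosome 1 from 169655501 to 169695813, had 5496 CPM in untreated (5281 to 5717), 5973 CPM in sham (5828 to 6121) and 2580 CPM in denervated pericyte nuclei (2363 to 2811). The control libraries lay close together for Rgs5 and the denervated library lay below both, by -1.09 against untreated (-1.23 to -0.95) and -1.21 against sham (-1.34 to -1.08). In all other nuclei Rgs5 moved too, by -0.39 and -1.39, so the difference between pericyte and other nuclei was -0.70 (-0.87 to -0.54) against untreated and 0.18 against sham. Nuclei with an Rgs5 UMI made up 68.5%, 84.7% and 38.8% of members, and 53.1%, 68.3% and 34.4% after thinning to 300 UMIs. Adipocyte nuclei, which should lack Rgs5, had a UMI of it in 8.27%, 10.8% and 3.07%, at medians of 1845, 1429 and 980.5 UMIs per nucleus against 780, 780 and 398 in pericyte nuclei. Among nuclei with at least 500 detected genes, where 55 denervated members remained, the Rgs5 ratio was -0.53 against untreated and -0.47 against sham, short of the fold used for a call.

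Steap4, a metalloreductase, followed Rgs5. It had 895 CPM in untreated (810 to 987), 1478 CPM in sham (1406 to 1552) and 411 CPM in denervated pericyte nuclei (327 to 509). The denervated level was below both, by -1.12 against untreated (-1.48 to -0.78) and -1.85 against sham (-2.18 to -1.53). In nuclei with at least 500 detected genes the Steap4 ratios were -0.56 and -1.13. All other nuclei had a Steap4 ratio of 0.45 against untreated, the opposite direction, and -0.96 against sham, so the difference between pericyte and other nuclei was -1.57 (-1.96 to -1.20) and -0.88 (-1.24 to -0.54). Ndufa4l2, a relative of a respiratory chain subunit that cells induce in low oxygen, had 519, 437 and 173 CPM and was lower by -1.58 against untreated (-2.14 to -1.07) and -1.33 against sham. In nuclei with at least 500 detected genes the Ndufa4l2 ratios were -0.94 and -0.60. Tbx18, a T-box factor of mural cells, had 385 CPM in untreated, 201 CPM in sham and 163 CPM in denervated pericyte nuclei. The sham level of Tbx18 was thus close to the denervated level, with a ratio of -0.30 between them. Vtn, vitronectin, had 107, 207 and 59.4 CPM, and P2ry14, a receptor for UDP sugars, had 7, 34 and 1 UMIs. In nuclei with at least 500 detected genes the ratio to sham was -0.98 for Vtn and -0.0085 for Anpep, short of a call for both.

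Sparc, Cxcl12 and Postn were called lower in the denervated library in at least 1 comparison. Sparc, a collagen-binding protein, had 4934 CPM in untreated (4731 to 5144), 3969 CPM in sham (3852 to 4090) and 2223 CPM in denervated pericyte nuclei (2022 to 2439). Its ratio was -1.15 against untreated (-1.30 to -1.0) and -0.84 against sham, and the latter was not called. In nuclei with at least 500 detected genes the Sparc ratio to untreated was -0.63, short of a call. Cxcl12, a chemokine of vessel walls, had 962, 1189 and 381 CPM, with ratios of -1.34 (-1.70 to -0.98) and -1.64 (-1.99 to -1.31). Postn, periostin, had 1053, 1253 and 431 CPM, with ratios of -1.29 (-1.64 to -0.96) and -1.54 (-1.87 to -1.23). Of 19 fibrosis and injury genes, the list that holds Postn, 1 of 9 was called higher (Cyr61) and 1 lower (Postn) against untreated, and 2 of 11 higher (Tnc and Tgfbi) and 2 lower (Col3a1 and Postn) against sham, beside 3.75% higher and 4.78% lower over all genes against untreated and 4.98% and 7.19% against sham. The Col3a1 ratio to sham went from -1.21 to -0.90, short of a call, in nuclei with at least 500 detected genes. Of 31 basement membrane and matrix genes, 1 was called higher (Lamb2) and 1 lower (Sparc) among 21 that could be compared with untreated, and 2 higher and 1 lower among 24 that could be compared with sham. The medians of -0.14 and -0.08 lay near those of all genes.

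The genes furthest down against both other libraries, mt-Nd2 apart, had few UMIs. They reached the minimum of 30 UMIs through the control libraries, where they were higher, so their levels are given as a description and nothing is read from their calls. Gpx8, a peroxidase of the endoplasmic reticulum, had 44 UMIs in untreated, 116 in sham and 2 in denervated pericyte nuclei, or 98.0, 107 and 9.90 CPM, and its ratio was -3.31 against untreated (-6.40 to -1.37) and -3.44 against sham (-6.50 to -1.55). Selenop, a selenium transport protein, had 67, 171 and 5 UMIs, or 149, 158 and 24.8 CPM, with a ratio of -2.59 against untreated (-4.26 to -1.30). Hic1, a transcriptional repressor on chromosome 11 from 75164565 to 75169519, had 198 CPM in untreated (159 to 244), 167 CPM in sham (143 to 193) and 39.6 CPM in denervated pericyte nuclei (17.1 to 78). The Hic1 ratio to untreated was -2.32 (-3.58 to -1.28), and in all other nuclei it was -1.55. Dlk1, an inhibitor of adipogenesis from the same imprinted region as Meg3 (chromosome 12, 109452823 to 109463336), had 158 CPM in untreated (123 to 199), 189 CPM in sham (164 to 217) and 39.6 CPM in denervated pericyte nuclei (17.1 to 78). The Dlk1 ratio was -2.0 against untreated (-3.26 to -0.94), where other nuclei had -0.21, and -2.25 against sham, where other nuclei had -1.91. In nuclei with at least 500 detected genes the Dlk1 ratios were -1.06 and -1.18. Meg3, which lies next to Dlk1, had 2933 CPM in untreated and 3322 CPM in denervated pericyte nuclei. Tmem140, Tcn2, Rnf141, Tmem106b, Letmd1, Rraga and Calm3 completed the lowest group, each with at most 19.8 CPM in the denervated members and 58.3 to 118 CPM in the controls. The Calm3 ratio to sham went from -1.94 to -0.71, short of a call, in nuclei with at least 500 detected genes. The mitochondrial gene mt-Nd2 had 2187, 2277 and 584 CPM and was lower by -1.90 and -1.96, and all other nuclei were lower by -1.82 and -2.08, so the size was alike in both.

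The beta1-adrenergic receptor Adrb1, which binds the transmitter of sympathetic nerves, was the vasoactive receptor called lower in both comparisons. Adrb1 reached the minimum of 30 UMIs through the control libraries, where it was higher. Its levels are therefore given as a description, and nothing is read from its calls. It had 86 UMIs in untreated, 111 in sham and 10 in denervated pericyte nuclei, or 191, 103 and 49.5 CPM. The levels fell in the order untreated, sham and denervated, and the ratio of denervated to untreated was -1.95 (-3.06 to -1.0), while that to sham was -1.05 (-2.15 to -0.12) and ranged from -2.35 to -0.19 over the alternative settings. In all other nuclei Adrb1 had 98.0, 25.9 and 75.7 CPM. Of 37 vasoactive receptors, 7 could be compared between denervated and untreated and 14 between denervated and sham, with 0 called higher in either and 1 and 5 called lower. The 5 were Adrb1, Avpr1a, P2ry14, Calcrl and Ramp2. The sham members held more UMIs, and Avpr1a, P2ry14 and Ramp2, with 52, 34 and 60 UMIs in sham and 2, 1 and 1 in denervated members, reached the minimum of 30 UMIs through sham alone, so nothing is read from the direction of this count.

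Of the 12 genes named as highest in the denervated library against both others, several were also higher in all other nuclei of that library. Mid1, Hp, Tenm4, Cox8b and Zfp536 reached the minimum of 30 UMIs against untreated only with the denervated library, where they were higher. Mid1 did so against sham as well. Nothing is read from those calls, and the levels are given as a description. Mid1, a ubiquitin ligase, had 22.3, 21.3 and 178 CPM in pericyte nuclei, and the ratio to sham of 3.07 stood beside 2.75 in all other nuclei. Hp, haptoglobin, an acute phase protein, had 17.8, 27.8 and 193 CPM and ratios of 3.44 (2.32 to 4.75) and 2.80 (2.07 to 3.54), and in other nuclei of 2.38 and 1.80. Tenm4, an adipocyte gene in these libraries with 882, 888 and 1066 CPM in adipocyte nuclei, had 31.2, 46.3 and 173 CPM in pericyte nuclei. Cox8b, a mitochondrial protein of brown fat, had 40.1, 31.5 and 149 CPM in pericyte nuclei, where adipocyte nuclei had 151, 252 and 231 CPM. The adipocyte marker sum was also highest in denervated pericyte nuclei, at 6456 CPM beside 5812 CPM in untreated and 3733 CPM in sham, and its part in Tenm4 and Cox8b was not tested. Zfp536, a zinc finger repressor with 6.22, 3.73 and 12.6 CPM in adipocyte nuclei, had 26.7 CPM in untreated (13.8 to 46.7), 33.3 CPM in sham (23.3 to 46.1) and 129 CPM in denervated pericyte nuclei (84.1 to 189). The Zfp536 ratio was 2.27 against untreated (1.23 to 3.39) and 1.95 against sham (1.16 to 2.72). After thinning to 300 UMIs the Zfp536 ratio to sham was 0.67, short of a call. Mafk, Gm26694, Tarbp2, Fgf14, Thsd7a and Wdr89 were also in the group. Gm26694 is a predicted gene, and whether counting used the strand was not stated, so its reads may belong to a neighbour.

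**Figure D4:**
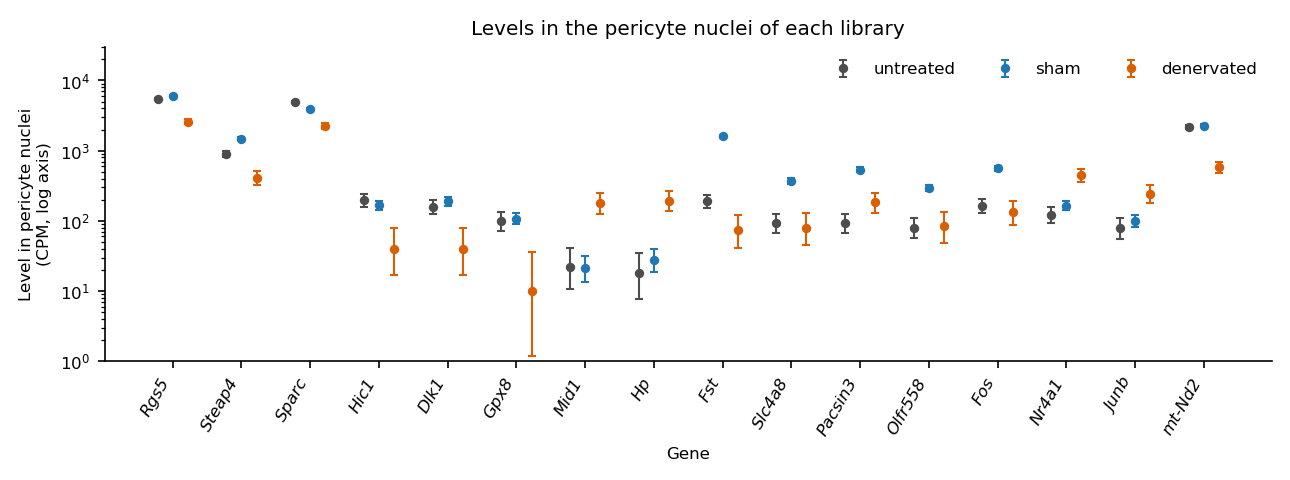
Level in CPM on a log axis, with 95% counting intervals, of genes named here in the pericyte nuclei of the untreated, sham and denervated libraries. Rgs5 and Steap4 are lowest in the denervated library, and Fst is highest in the sham library at 1592 CPM. Gpx8, Hic1, Dlk1 and Mid1 reached the minimum of 30 UMIs through the libraries where they are higher, and nothing is read from their calls.

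Immediate early genes, which cells switch on within minutes of a stimulus and which also respond to tissue handling, included called genes in each pair of libraries. Of 22, 14 could be compared between denervated and untreated, and 7 were called higher (Fosb, Fosl2, Junb, Egr1, Nr4a1, Nr4a3 and Zfp36) and 0 lower, with a median of 1.07, beside 3.75% called higher and 4.78% lower over all genes. Between denervated and sham, 4 of 16 were called higher and Fos alone was called lower, with a median of 0.26, beside 4.98% and 7.19% over all genes. Fos was at -0.94, short of a call, in nuclei with at least 500 detected genes, and Nr4a3, called higher at 1.45, was at -2.81 with ambient RNA subtracted. Between sham and untreated, 6 of 17 were called higher and 1 lower, with a median of 0.69, beside 4.62% and 2.48% over all genes. Nr4a1, an orphan nuclear receptor, had 122 CPM in untreated (92.3 to 159), 164 CPM in sham (141 to 190) and 446 CPM in denervated pericyte nuclei (358 to 548). The change in Nr4a1 exceeded that in other nuclei by 1.07 against untreated (0.56 to 1.59) and 1.08 against sham (0.68 to 1.46). Junb had 77.9, 99.0 and 243 CPM, and its ratio to untreated, 1.64, equalled that in other nuclei, 1.60, within counting error. Fos went the other way. It had 163 CPM in untreated (127 to 204), 558 CPM in sham (514 to 604) and 134 CPM in denervated pericyte nuclei (88.1 to 194). Of 14 heat shock chaperones, 3 of 12 compared were called higher against untreated (Hspa1a, Hsp90aa1 and Hspe1) and 0 lower, with a median of 0.40. Against sham, 2 of 13 were called higher (Hsp90aa1 and Hspd1) and 1 lower (Dnajb4), with a median of 0.095. Hsp90aa1 had 672, 677 and 1436 CPM in pericyte nuclei, and all other nuclei had 598, 1626 and 1344 CPM.

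The other function lists varied in how many genes were called. Among clock genes, 4 of 11 were called higher than in sham (Per2, Cry1, Tef and Hlf) and 0 lower, and against untreated 1 of 9 was called higher (Cry1). Among integrins and adhesion genes, 4 of 14 were called higher than in sham (Itga5, Itga6, Cdh13 and Ncam1) and 1 lower (Cdh6), and against untreated 1 of 12 was called higher (Cdh13). Among chemokines and inflammation genes, 3 of 10 were called higher than in sham (Cxcl1, Osmr and Nfkbia) and 1 lower (Cxcl12), and against untreated 2 of 8 were called higher (Nfkbia and Nfkbiz) and 1 lower (Cxcl12). Among lipid handling genes, 1 of 12 was called higher than in sham and 3 lower (Cd36, Pltp and Enpp2), and against untreated 1 of 9 was called lower (Enpp2). Over all genes 4.98% were called higher and 7.19% lower than in sham, and 3.75% higher and 4.78% lower than in untreated. In nuclei with at least 500 detected genes, the ratio to sham was 0.90 for Per2, 0.18 for Itga5, 0.22 for Osmr, -0.57 for Cd36 and -0.079 for Enpp2, short of a call for each. Cdh6, with 38 and 1 UMIs, and Pltp, with 52 and 3 UMIs, reached the minimum of 30 UMIs through sham alone. The ratio of Enpp2 to untreated turned from -1.06 to 0.16. Contractile genes had 0 called in either direction among 19 compared with untreated and among 20 compared with sham, with medians of 0.17 and 0.14. The Notch pathway had 0 of 10 and 0 of 11 called, and the TGF-beta and BMP genes 0 of 11 and 0 of 16. The nitric oxide and cyclic GMP genes had 0 of 10 called against untreated and 2 of 11 called lower against sham (Npr3 and Mrvi1). Potassium and calcium channels had 0 of 16 called against untreated, and 1 higher and 2 lower of 23 against sham. Atp2b4, one of the 2, turned from -1.39 to 0.054 in nuclei with at least 500 detected genes. Phosphodiesterases that break down cyclic AMP were called higher against sham in 4 cases of the 21 cyclic AMP genes compared (Pde3b, Pde4a, Pde4b and Pde7b), and against untreated in 1 of 18. That was Pde3b, at 37.9, 38.9 and 124 CPM. Pde3b reached the minimum of 30 UMIs against untreated only with the denervated library, where it was higher. Nothing is read from that call. Pde3b was also called lower in pericyte than in other nuclei in each library, and Pde4b was called lower in sham than in untreated pericyte nuclei. With 1 library per condition, absence of a call does not show that levels were alike, and genes under 30 UMIs were not read.

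The sham library was compared with the untreated library as the difference between controls. Of 7939 genes, 367 were called higher in sham pericyte nuclei (4.62%) and 197 lower (2.48%), with a median of 0.02. Of the 4436 genes with a mean of at least 50 CPM, 51 were called higher and 58 lower in the sham library against both others. These comparisons share the sham library. Genes were thus called between the controls as well as between the denervated library and either control.

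Fst stood out. It encodes follistatin, a secreted protein that binds activins and myostatin, and lies on chromosome 13 from 114452290 to 114458951. It had 85 UMIs in untreated, 1720 in sham and 15 in denervated pericyte nuclei, or 189 CPM (151 to 234), 1592 CPM (1517 to 1669) and 74.3 CPM (41.6 to 122). The sham level was above the other 2 by 3.07 on the log2 scale against untreated (2.76 to 3.40), and the denervated level was below sham by -4.42 (-5.26 to -3.70) and below untreated by -1.35 (-2.25 to -0.55). With 15 denervated UMIs, Fst reached the minimum of 30 UMIs in these last comparisons through the other 2 libraries, where it was higher. Nothing is read from the denervated calls of Fst. Nuclei with an Fst UMI made up 12.1%, 54.6% and 2.44% of members, and 4.49%, 31.7% and 1.59% after thinning. Adipocyte nuclei had a UMI of Fst in 2.03%, 2.54% and 0.754% and endothelial nuclei in 0.294%, 2.72% and 0.234%. In smooth muscle nuclei Fst had 173, 381 and 69.4 CPM. All other nuclei had 13.5 and 97.1 CPM in untreated and sham, a ratio of 2.84, and the difference from the pericyte change was 0.23 (-0.16 to 0.63). Over all alternative settings the Fst ratio of sham to untreated ranged from 2.9 to 3.25.

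Further genes were called higher in sham than in untreated pericyte nuclei. Pacsin3, which shapes membranes, on chromosome 2 from 91255954 to 91264679, had 93.5 CPM in untreated (67.4 to 126), 535 CPM in sham (492 to 580) and 183 CPM in denervated pericyte nuclei (129 to 253). The denervated level of Pacsin3 lay between the other 2, and the ratio of sham to untreated was 2.52 (2.06 to 3.0). Slc4a8, a sodium-dependent bicarbonate transporter on chromosome 15 from 100761747 to 100823968, had 93.5, 376 and 79.2 CPM, with a ratio of 2.01 (1.55 to 2.50) and of 3.27 in other nuclei, which had 2.07 CPM in untreated and 20 CPM in sham. Olfr558, an olfactory receptor gene present in vascular smooth muscle, had 80.2, 295 and 84.2 CPM in pericyte nuclei and 585, 629 and 555 CPM in smooth muscle nuclei. Its sham level thus lay nearest to that of smooth muscle nuclei, and the ratio of sham to untreated was 1.88 (1.38 to 2.42). Myocd, the coactivator that drives smooth muscle genes, had 5, 66 and 7 UMIs, or 11.1, 61.1 and 34.7 CPM, and a ratio of 2.46 (1.16 to 4.13). Myocd reached the minimum of 30 UMIs through sham alone, and nothing is read from its call. It was not called between denervated and sham. The Myocd ratio was 2.27 among members with no smooth muscle UMI and 1.20 with no limit on such UMIs. Members with no smooth muscle UMI made up 95.6% in untreated, 90.6% in sham and 96.2% in denervated, and the smooth muscle marker sum was 1318, 1229 and 1386 CPM. That sum includes Ntrk3, which was called lower in sham than in untreated and in denervated pericyte nuclei. The same list summed to 2395, 1416 and 2708 CPM in adipocyte nuclei, so the order of these sums is not read as one of smooth muscle transcripts. AI838599, Cbx7 and Mylip were also among the 8 genes named as highest in sham against both others. Mitochondrial mt-Nd3 had 1534, 5217 and 886 CPM, with a ratio of 1.77 in pericyte and 1.73 in all other nuclei.

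Vessel and neuronal signals that differed between the controls included Ntn4 and Rgs4. Of 10 neurovascular and innervation genes compared, 1 was called higher in sham than in untreated (Ntn4) and 1 lower (Efnb1), beside 4.62% and 2.48% over all genes. Ntn4, the basement membrane protein netrin-4, had 312 CPM in untreated (262 to 368), 674 CPM in sham (626 to 725) and 297 CPM in denervated pericyte nuclei (227 to 382), with a ratio of sham to untreated of 1.11 (0.85 to 1.38). Rgs4, a relative of Rgs5, had 354, 734 and 317 CPM and a ratio of 1.05 (0.80 to 1.31). Kitl, the ligand of the Kit receptor, had 176 CPM in untreated (139 to 219), 354 CPM in sham (319 to 391) and 267 CPM in denervated pericyte nuclei (201 to 349), far below its 1219, 1106 and 1113 CPM in endothelial nuclei. Among endothelial markers 3 of 8 (Tek, Erg and Shank3) were also called higher in sham than in untreated pericyte nuclei and 0 lower, with a median of 0.70. The part of endothelial transcripts in the Kitl level was not tested. Mcam, a mural adhesion protein, had 501 CPM in untreated (438 to 571), 230 CPM in sham (203 to 261) and 396 CPM in denervated pericyte nuclei (314 to 493), the sole pericyte marker of 20 called between the controls. Of 13 glucocorticoid-responsive genes compared, 5 were called higher in sham than in untreated pericyte nuclei (Fkbp5, Zbtb16, Pdk4, Errfi1 and Mt1) and 0 lower, with a median of 0.96, beside 4.62% called higher over all genes. Against other nuclei, Fkbp5 and Errfi1 were called higher in each library. Pdk4 was called lower in each, Mt1 in the untreated and denervated libraries and Zbtb16 in the sham library. Errfi1, a feedback inhibitor of the EGF receptor, had 254 CPM in untreated (209 to 305), 567 CPM in sham (523 to 614) and 391 CPM in denervated pericyte nuclei (310 to 487). Zbtb16 had 44.5, 225 and 114 CPM in pericyte nuclei and 52.8, 483 and 170 CPM in all other nuclei, and its ratio of sham to untreated was 2.34 in pericyte and 3.19 in other nuclei. Zbtb16, among the 5 called, reached the minimum of 30 UMIs through sham, where it was higher, and nothing is read from its call. Of 12 clock genes compared, Per2, Tef and Hlf were called lower in sham than in untreated and 0 higher, with a median of -0.02, beside 2.48% called lower over all genes, and the hour of sampling was not given in the labels. Tef had 167, 39.8 and 114 CPM.

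The genes named as lowest in sham pericyte nuclei against both others included Fasn and Lrrc4c. Fasn, fatty acid synthase, had 568, 124 and 574 CPM in pericyte nuclei and 5549, 1463 and 4065 CPM in adipocyte nuclei, and its ratio of -2.19 equalled the -2.12 of other nuclei within counting error. Gpd1 with 240, 59.2 and 243 CPM and Aacs with 71.3, 20.4 and 84.2 CPM had the same order. Lrrc4c, a synaptic adhesion protein, was different. It had 145 CPM in untreated (112 to 184), 39.8 CPM in sham (28.8 to 53.6) and 213 CPM in denervated pericyte nuclei (154 to 287), while its ratio of sham to untreated in other nuclei was 0.02, a difference of -1.88 (-2.51 to -1.26). Mdga2, another neuronal adhesion protein, had 98.0, 26.8 and 104 CPM, with a ratio of -1.87 in pericyte and -0.16 in other nuclei and a difference of -1.71 (-2.50 to -0.93).

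**Figure D5:**
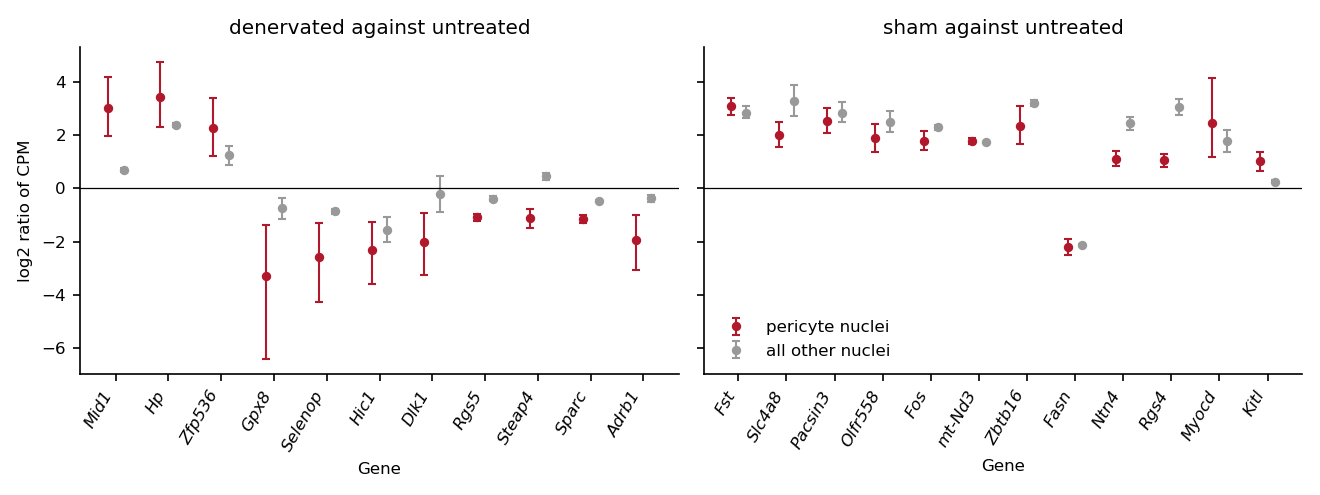
Log2 ratio between libraries in pericyte nuclei and in all other nuclei, with 95% counting intervals, for denervated against untreated (left) and sham against untreated (right). Steap4 differed by -1.12 in pericyte nuclei, with a difference of -1.57 from other nuclei, and Fst moved by 3.07 in pericyte and 2.84 in other nuclei.

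The untreated library differed from both others in fewer genes, 11 called higher and 21 lower of 4436. Slc29a1, a nucleoside transporter that takes up adenosine, had 325 CPM in untreated (275 to 382), 133 CPM in sham (112 to 157) and 114 CPM in denervated pericyte nuclei (72.2 to 171). The Slc29a1 ratio was -1.29 for sham (-1.63 to -0.94) and -1.51 for denervated (-2.22 to -0.87), in other nuclei -0.81 and -0.31. Between denervated and untreated, Slc29a1 reached the minimum of 30 UMIs only with the untreated library, where it was higher. Nothing is read from that call. Hpcal4, a neuronal calcium sensor on chromosome 4 from 123183227 to 123194701, had 281, 130 and 129 CPM. Its call between denervated and untreated likewise needed the untreated library, where it was higher, to reach 30 UMIs, and nothing is read from it. All other nuclei had 3.29, 6.72 and 3.24 CPM of Hpcal4, a log2 ratio of 6.41, 4.27 and 5.31. Gm26870, a lincRNA on chromosome 9 from 3000282 to 3038313, had 341, 49.1 and 119 CPM, from UMIs in 17, 11 and 8 nuclei with up to 23, 22 and 7 in a single nucleus, so its level rests on few nuclei. Ifi27l2a, an interferon-inducible gene, was lowest in untreated pericyte nuclei, with 3 UMIs there, 108 in sham and 34 in denervated, or 6.68, 99.95 and 168 CPM. It reached the minimum of 30 UMIs through the other 2 libraries, and nothing is read from its call. The Ifi27l2a ratio was 3.90 for sham (2.32 to 6.20) and 4.66 for denervated (2.99 to 7.0), and other nuclei had 36, 252 and 222 CPM. The list of 20 interferon-response genes had 0 of 7 called between denervated and untreated and 0 of 9 between sham and untreated. Over all genes 3.75% were called higher and 4.78% lower in denervated, and 4.62% higher and 2.48% lower in sham. With so few genes compared, nothing is read from these counts. Plcb1, a phospholipase C, had 33.4 CPM in untreated (18.7 to 55.1), 81.4 CPM in sham (65.3 to 100.3) and 134 CPM in denervated pericyte nuclei (88.1 to 194), while all other nuclei had 512, 430 and 608 CPM. In other nuclei the Plcb1 ratio to untreated was -0.25 for sham and 0.25 for denervated, and the difference from it was 1.54 for sham (0.74 to 2.43) and 1.75 for denervated (0.79 to 2.77). Plcb1 too reached the minimum of 30 UMIs against untreated only with the other 2 libraries, where it was higher, and nothing is read from its calls.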

How the data were processed

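The 3 tables of counts were deposited by the authors as raw UMI counts per gene and barcode, made per the file headers with the BD Rhapsody whole transcriptome pipeline, version 1.9-nuclei, against GRCm38 and GENCODE vM19 for the untreated and denervated libraries. The sham table has no header, and its build is not given in the sources used here. The labels also list a human build, which was not used. The authors' later removal of debris, ambient RNA and doublets was not repeated, and no doublet caller was run: doublets were limited by the sort gate and the marker rule alone.

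Barcodes were kept and pericyte nuclei chosen as described above. UMIs were summed over the members of a library and divided by their total to give CPM. Ratios of sums have exact conditional binomial intervals at the 95% level, sums have exact Poisson intervals, shares have Clopper-Pearson intervals, and differences of ratios combine the intervals of both. PCR and capture are not in these intervals. The 21 genes of the rule were left out of counts of called genes. Smooth muscle, endothelial, adipocyte and fibroblast nuclei were set apart with rules of the same form. Genes were named by rule: the 25 highest and 5 lowest against other nuclei, the 12 highest and 12 lowest in the denervated library and the 8 highest and 8 lowest in the sham and untreated libraries among genes of at least 50 CPM, and called or abundant members of 33 lists. Il34 and Hpcal4 were described against other nuclei after their values were seen. Thinning to 300 UMIs left out 498, 565 and 1006 shallower kept nuclei of the untreated, sham and denervated libraries for shares, and 8, 6 and 73 members for detection. The members, lists and depth of thinning were chosen with earlier results of these data known. The steps were tested on simulated data with Python 3.11.15, numpy 2.4.6 and scipy 1.17.1. Positions are from GENCODE vM21. Results for some genes are not reported here.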

Additional observations from a re-analysis of the deposited data

Results flagged for a closer look

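Gm26870 moved in opposite directions in pericyte and in all other nuclei between the sham and denervated libraries. The log2 ratio of denervated to sham was 1.28 in pericyte nuclei and -1.09 in all other nuclei, a difference of 2.37 with a counting interval of 1.59 to 3.11. The pericyte level rests on 11 sham and 8 denervated nuclei. Hpcal4 was lower in sham than in untreated pericyte nuclei, with a ratio of -1.11, and higher in all other nuclei, with a ratio of 1.03, a difference of -2.15 (-2.80 to -1.5). With 1 library per condition, neither difference was tested over samples.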

How the results depend on the processing

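Among ratios of named genes, 571 stayed within the counting interval of the main setting and 651 lay outside it with ambient RNA subtracted. Another 4, which had been called in the main setting, reversed. These counts were 1140, 495 and 6 in nuclei with at least 500 genes, and 1138, 392 and 1 after thinning. Under the other settings that change a ratio, 5 to 335 lay outside the interval and 0 called ratios reversed. A ratio that was not called could change sign without being counted as reversed. Anpep in denervated against untreated, for example, went from -0.73 to 0.34 in nuclei with at least 500 genes. Among nuclei with at least 500 genes the share of pericyte nuclei was 3.96% (untreated), 10.8% (sham) and 0.998% (denervated), with 143 genes lower against untreated, 176 against sham and 535 against other denervated nuclei. The shares were 5.25% (untreated) and 12% (sham) with at most 10% mitochondrial UMIs, 3.89%, 7.78% and 2.51% with at least 5 pericyte UMIs, 3.79%, 7.66% and 3.49% with sums 5 times the others, 8.58% (sham) with no smooth muscle UMI, 4.83% and 10.7% (untreated and sham) with no such limit, and 3.5%, 6.93% and 3.18% thinned to 300 UMIs. Thinning left 78 genes higher and 91 lower between denervated and untreated, 223 and 314 between denervated and sham, 187 higher in sham than untreated and 1057 higher than other untreated nuclei. With ambient RNA subtracted, 602 and 1253 genes were lower in denervated than in untreated and sham. In that setting 575 were higher and 361 lower in sham than untreated, and 2337 were lower than in other denervated nuclei. The subtraction took 54.8% to 78.8% of member UMIs. Its size was set from the 14 adipocyte markers in the members, with barcodes under 200 genes as the ambient profile. Ebf2 is among the 14 and was called higher in pericyte nuclei of the untreated and sham libraries, so too much may have been removed. With at least 100 UMIs of a gene, 31 were higher and 51 lower against untreated, 111 and 241 against sham, and 115 and 71 between the controls.

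Only ratios called in the main setting are listed as reversed. Among nuclei with at least 500 genes they were Acsl1 at 0.20 against untreated and 0.20 against sham, Enpp2 at 0.16 against untreated and Atp2b4 at 0.054 against sham. Tek at 0.69 and Tmem140 at 0.11 against other denervated nuclei were the others at that limit. Thinning put Ednrb at -0.058 against other denervated nuclei. Ambient subtraction put Nr4a3 at -2.81 against sham and -1.78 against other denervated nuclei, Hes1 at -3.06 against other denervated nuclei and Fosb at -0.37 against other untreated nuclei. The causes were not tested. At the 500-gene limit 324, 864 and 55 members remained, and Dlk1 against sham was -1.18, Selenop -1.17, Olfr558 -0.79 and Fos -0.94. No paired analysis was possible because each condition has 1 library.

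The denervated members held 201974 UMIs, so genes there with under 10 UMIs, such as Gpx8, Selenop, Hic1 and Dlk1, have intervals over several log2 units. A second library per condition would be needed for any test.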
